A study of Mus musculus with 60 samples.

Results

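The genes described here make cholesterol and long-chain fatty acids or control that synthesis in mouse embryonic stem (ES) cells. They are 30 genes chosen by symbol for their place in the pathway. No rule on measured values was used, but earlier results of these data were known. All 30 were listed in both expression tables of the study, among 24206 and 24314 gene symbols. By role, 7 belong to the mevalonate stage (Acat2, Hmgcs1, Mvk, Pmvk, Mvd, Idi1 and Fdps) and 11 to the stage between squalene and cholesterol (Fdft1, Sqle, Lss, Cyp51, Tm7sf2, Msmo1, Nsdhl, Hsd17b7, Ebp, Sc5d and Dhcr7). A further 4 regulate or carry sterols (Srebf1, Srebf2, Insig1 and Stard4), and 8 make or modify fatty acids (Acly, Acaca, Fasn, Elovl6, Scd1, Scd2, Fads1 and Fads2).

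The study set ES cells with reduced or deleted Lnc956, a long noncoding RNA, against wild-type (WT) cells, in the presence or absence of etoposide, a drug that traps topoisomerase II on cleaved DNA. The first of 2 RNA-seq sets held Lnc956 knockdown cells with 10 uM etoposide, untreated Lnc956 knockdown cells, WT cells with 10 uM etoposide and untreated WT cells. A time course held cells with Lnc956 knockout and P53 knockdown together (called combined loss here), P53 knockdown cells and Lnc956 knockout cells. Each was sampled at 0, 3, 6 and 9 h of etoposide, and labelled WT libraries were at 6 and 9 h. ChIP-seq for P53 covered the 4 groups of the first set, and ChIP-seq for KLF4 covered WT cells, Lnc956 knockout cells, knockout cells with full-length Lnc956 put back and knockout cells with Lnc956 lacking bases 862 to 1253, each untreated or with 10 uM etoposide for 3 h. Every group had 2 libraries, and all cells grew in medium with serum replacement and leukemia inhibitory factor. The time course is labelled 1 uM except for 4 libraries labelled 10 uM, which stand in 4 groups beside a replicate at 1 uM (knockout at 3 and 6 h, P53 knockdown at 6 h and combined loss at 9 h). The hours of treatment in the first set and in the P53 ChIP, the means of the knockdowns and the number of knockout clones are not stated in the labels.

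As background, cells build cholesterol from acetyl-CoA by way of mevalonate, farnesyl diphosphate, squalene and lanosterol. The mevalonate stage also feeds the isoprenoids that anchor proteins to membranes. Transcription of most enzymes of the pathway is driven by SREBP2 (the product of Srebf2), and that of the fatty acid enzymes largely by SREBP1c (from Srebf1). When sterols are plentiful, INSIG proteins hold the SREBP escort SCAP in the endoplasmic reticulum, and the genes are turned down together. P53 is known to restrain the mevalonate pathway in liver and other cells, in part through the sterol exporter Abca1.

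Levels are FPKM, fragments scaled to transcript length and to the mapped total, with 2 values for 2 libraries. Differences are on the scale of log2(FPKM + 1), which understates the change of genes with low levels, and are given with their standard error (SE). A gene is called higher or lower at an adjusted p under 0.05 in limma, with Benjamini-Hochberg adjustment over all 12733 genes tested in the first set or all 14223 in the time course. All 30 genes passed the filter of 1 FPKM in at least 2 libraries of each table. Whether the 2 libraries of a group came from separate cultures is not labelled, so p-values cover only how far these libraries differ, which can be technical. Read counts are unknown, so no counting error was computed.

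Of 10 ES cell marker genes, 10 were at 1 FPKM or more in every group. A list of 17 fibroblast genes summed to 208 to 229 FPKM in treated libraries of the first set and 856 to 881 FPKM in untreated ones. In the time course that sum lay between 348 and 1181 FPKM in all mutant libraries and between 11.9 and 14.2 FPKM in the 4 WT libraries, where 5 of the 17 genes were at 1 FPKM or more and Postn and Fap were at 0 in every library. Trp53, the targeted gene of the P53 knockdown, had 61.8 to 111.5 FPKM in P53 knockdown libraries and 52.5 to 66.2 FPKM in combined-loss libraries, against 176.5 to 301.4 FPKM in knockout and 183.4 to 233.9 FPKM in WT libraries. A list of 8 endoderm genes summed to 3.17 to 8.75 FPKM over all libraries. Lnc956 was not analysed here. In bulk samples such as these, fewer cells of a type and less RNA per cell cannot be told apart.

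Promoter sequence was looked at because SREBP acts through sterol regulatory elements together with NF-Y at CCAAT boxes, and because several promoters of the pathway lay under ChIP peaks. RefSeq promoters (GRCm38.p6, from 250 bases before to 50 after a start) were found for 23 of the 30 genes. Sqle, Fdft1, Fdps, Stard4, Scd1, Scd2 and Fads1 had no entry. Searched on both strands, CCAAT was present in 19 of the 23 genes, against 43.1% of the 10768 tested genes with an entry. The GC box GGGCGG was present in 19 of 23, against 67.6%, and the E box CACGTG in 4 of 23, against 11.7%. The sterol regulatory element TCACNCCAC was found in 1 of 23, Hmgcs1, against 1.46%. Hits of different motifs may share bases, and a match is not a tested site. Only these letters were searched, within this window, so a missing match does not show that an element is absent. The 5 promoters below, each the 250 bases before the start on the gene's own strand, are those of Hmgcs1, Msmo1, Cyp51 and Acat2, whose starts lay under P53 peaks after etoposide, and of Mvk, whose level rose most with etoposide in WT cells. Capitals mark the sterol regulatory element and every CCAAT box, which reads ATTGG on the opposite strand. The windows are chr13:119690101-119690350 (plus strand) for Hmgcs1, chr8:64733579-64733828 (minus strand) for Msmo1, chr5:4104698-4104947 (minus strand) for Cyp51, chr17:12960726-12960975 (minus strand) for Acat2 and chr5:114444019-114444268 (plus strand) for Mvk.
Hmgcs1: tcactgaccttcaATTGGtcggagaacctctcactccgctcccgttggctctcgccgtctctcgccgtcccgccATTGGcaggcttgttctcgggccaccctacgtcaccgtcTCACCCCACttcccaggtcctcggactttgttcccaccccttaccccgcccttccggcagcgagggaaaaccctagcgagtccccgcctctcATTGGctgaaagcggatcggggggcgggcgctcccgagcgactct
Msmo1: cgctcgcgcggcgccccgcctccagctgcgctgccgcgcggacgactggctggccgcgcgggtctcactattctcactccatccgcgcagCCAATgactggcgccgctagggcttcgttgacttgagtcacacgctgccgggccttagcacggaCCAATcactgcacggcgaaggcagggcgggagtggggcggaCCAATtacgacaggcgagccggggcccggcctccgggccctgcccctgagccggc
Cyp51: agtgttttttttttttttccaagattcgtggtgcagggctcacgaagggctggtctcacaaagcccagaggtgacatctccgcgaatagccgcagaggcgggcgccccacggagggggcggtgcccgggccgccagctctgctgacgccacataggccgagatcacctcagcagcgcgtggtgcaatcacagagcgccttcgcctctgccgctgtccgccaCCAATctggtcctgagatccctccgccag
Acat2: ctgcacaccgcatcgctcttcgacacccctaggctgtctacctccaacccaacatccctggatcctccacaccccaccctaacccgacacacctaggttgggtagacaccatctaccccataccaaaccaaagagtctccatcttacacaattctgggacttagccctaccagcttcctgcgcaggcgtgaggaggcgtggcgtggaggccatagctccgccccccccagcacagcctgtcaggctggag
Mvk: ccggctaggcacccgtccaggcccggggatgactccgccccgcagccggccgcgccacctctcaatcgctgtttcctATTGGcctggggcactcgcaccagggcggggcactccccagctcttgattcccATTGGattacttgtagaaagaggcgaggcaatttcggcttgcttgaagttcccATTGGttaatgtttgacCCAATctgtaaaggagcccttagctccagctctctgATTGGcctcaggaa
In the Hmgcs1 promoter the element begins 137 bases before the start and stands among 3 CCAAT boxes. Msmo1 has 3 CCAAT boxes, Cyp51 has 1, Acat2 has 0 and Mvk has 5.

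**Figure D1:**
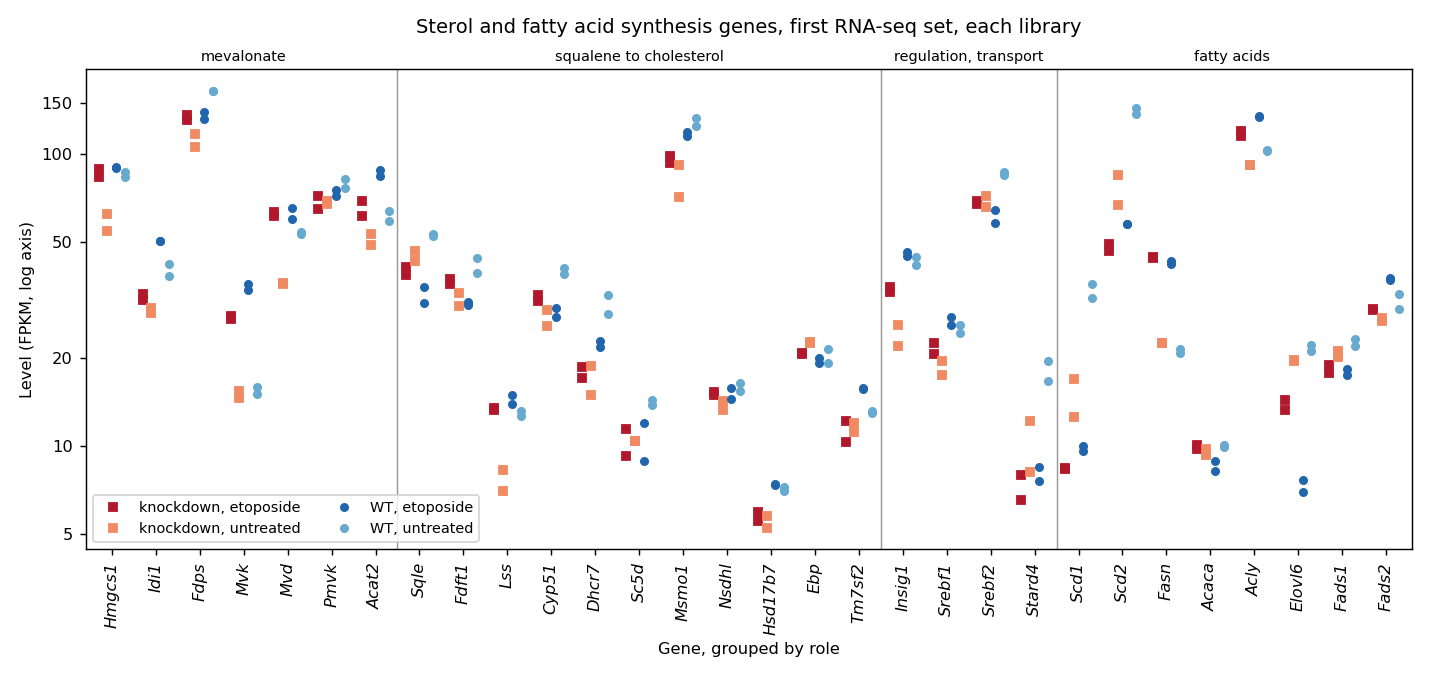
Level of each of the 30 genes in the first RNA-seq set (FPKM, log axis), grouped by role, with a point per library for knockdown and WT cells with and without etoposide. Untreated knockdown libraries lie below untreated WT libraries for 27 of the 30 genes, where 25.6% of all genes tested did so, and the WT points of Scd1, Scd2 and Elovl6 drop with etoposide.

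Without etoposide, sterol genes were lower in Lnc956 knockdown cells than in WT cells. In that comparison 21 of the 30 genes were lower and 0 higher, where 8.48% of all genes tested were lower and 15.3% higher. The median difference was -0.35 for the 30 genes and 0.04 for all genes tested. At an unadjusted p under 0.05 in limma, 23 were lower and 1 was higher. By role, the lower genes were 6 of 7 of the mevalonate stage, 7 of 11 of the squalene to cholesterol stage, 4 of 4 of the regulators and carriers and 4 of 8 of the fatty acid genes.

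Hmgcs1, which makes HMG-CoA, had 54.5 and 62.4 FPKM in untreated knockdown libraries, against 86.4 and 83.6 FPKM in untreated WT libraries. The difference was -0.53 ± 0.06 (SE; limma adjusted p = 0.00158). Mvd, which decarboxylates mevalonate diphosphate, had 35.8 and 36.1 FPKM in knockdown and 54.1 and 53.2 FPKM in WT libraries (-0.56 ± 0.05, adjusted p = 0.000884). Both genes were lower in each knockdown library than in either WT library. Mvk, the kinase of the same stage, had 14.5 and 15.4 FPKM in knockdown and 15.1 and 15.9 FPKM in WT libraries and was the only mevalonate gene that did not pass (-0.05 ± 0.05, adjusted p = 0.58).

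Further along the pathway, Dhcr7, which catalyses the last step to cholesterol, had 14.9 and 18.8 FPKM in untreated knockdown libraries, against 32.8 and 28.4 FPKM in untreated WT libraries (-0.83 ± 0.11, adjusted p = 0.00177). Fdft1, the squalene synthase, had 30.1 and 33.5 FPKM in knockdown and 44.0 and 39.1 FPKM in WT libraries (-0.38 ± 0.07, adjusted p = 0.00692). Sqle, the squalene epoxidase, had 43.0 and 46.5 FPKM in knockdown and 52.4 and 53.2 FPKM in WT libraries (-0.23 ± 0.07, adjusted p = 0.0358). The knockdown libraries lay under the WT libraries for all 3 genes, by the smallest margin for Sqle. The call of Sqle ended without either WT library or without knockdown replicate 1, and that of Fdft1 without replicate 1 of either group. Lss and Msmo1, the lanosterol synthase and a sterol methyl oxidase, were lower by a similar size (-0.69 ± 0.08 and -0.66 ± 0.10).

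The 4 regulators and carriers were lower too. Insig1, which holds the SREBP escort in the endoplasmic reticulum and is itself an SREBP target, had 21.9 and 26.0 FPKM in untreated knockdown libraries, against 44.3 and 41.7 FPKM in untreated WT libraries (-0.82 ± 0.07, adjusted p = 0.000956). Srebf1 had 17.5 and 19.6 FPKM in knockdown and 26.0 and 24.4 FPKM in WT libraries (-0.43 ± 0.07, adjusted p = 0.00464). Srebf2 had 65.9 and 71.9 FPKM in knockdown and 86.5 and 85.0 FPKM in WT libraries (-0.31 ± 0.06, adjusted p = 0.00777), and that call ended without replicate 1 of either group. Stard4, which carries cholesterol between membranes, was also lower (-0.79 ± 0.16, adjusted p = 0.0104).

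Among the fatty acid genes Scd1 and Scd2 changed most. Scd1, which makes monounsaturated from saturated fatty acids, had 12.5 and 16.9 FPKM in untreated knockdown libraries, against 35.7 and 32.0 FPKM in untreated WT libraries (-1.16 ± 0.11, adjusted p = 0.00106). Scd2, its paralog, had 67 and 84.4 FPKM in knockdown and 143.6 and 136.8 FPKM in WT libraries (-0.89 ± 0.09, adjusted p = 0.00109). Fasn, the synthase that builds palmitate, had 22.5 and 22.4 FPKM in knockdown and 20.8 and 21.4 FPKM in WT libraries, a difference that did not pass (0.09 ± 0.04, adjusted p = 0.186). Of the other desaturases, Fads2 was lower (-0.19 ± 0.06, adjusted p = 0.0391) and Fads1 did not pass (-0.13 ± 0.06, adjusted p = 0.141). The 6 adipocyte genes listed summed to 5.77 and 8.80 FPKM in untreated knockdown libraries and to 15.5 and 16.7 FPKM in untreated WT libraries. Most of that sum was Fabp4, a fatty acid carrier, with 4.04 and 6.98 FPKM in knockdown and 13.9 and 14.8 FPKM in WT libraries, while Adipoq was at 0 in all 4 libraries. The part of these genes in the result was not tested. Fibroblast genes summed to 871 and 856 FPKM in knockdown and 881 and 878 FPKM in WT libraries. The count of 21 lower genes was 12 without WT replicate 1 and 12 without knockdown replicate 1.

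Genes beside the 30 were read from lists of the same and neighbouring pathways. Of 11 further sterol enzymes and regulators, 4 were lower and 1 was higher in untreated knockdown cells than in untreated WT cells. All genes tested had 8.48% lower and 15.3% higher in that comparison. Among 16 genes of fatty acid supply and elongation, 5 were lower and 1 was higher, led by Me1, which supplies NADPH (-0.44 ± 0.06, adjusted p = 0.00296). The isoprenoid branch had 1 lower gene of 10, fatty acid oxidation 3 higher and 1 lower of 10 tested, and sterol efflux 1 higher of 4 tested.

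Etoposide was tested first in WT cells. Against untreated WT cells, 8 of the 30 genes were higher and 13 lower, where 39.3% of all genes tested were higher and 37.6% lower, so the members' shares were near those of all genes. The median difference was -0.09 for the 30 genes and 0.01 for all. Of 7 mevalonate genes, 4 were higher and 1 lower, and of 11 squalene to cholesterol genes, 1 was higher and 5 lower. The regulators had 2 lower of 4, and the fatty acid genes 3 higher and 5 lower of 8.

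The rise was largest for Mvk, with 35.9 and 34.2 FPKM in treated WT libraries, against 15.1 and 15.9 FPKM in untreated WT libraries (1.13 ± 0.05, adjusted p = 2.12e-07). Fasn had 42.9 and 41.9 FPKM in treated and 20.8 and 21.4 FPKM in untreated WT libraries (0.97 ± 0.04, adjusted p = 1.49e-07). Acat2, the thiolase that opens the mevalonate stage, had 87.9 and 83.8 FPKM in treated and 63.9 and 59.0 FPKM in untreated WT libraries (0.48 ± 0.07, adjusted p = 0.000235). For these 3 genes every treated library was above every untreated one. Hmgcs1, with 89.5 and 90.3 FPKM in treated and 86.4 and 83.6 FPKM in untreated WT libraries, did not pass (0.08 ± 0.06, adjusted p = 0.273).

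The falls were largest for Scd1, Scd2 and Elovl6, which lengthens palmitate to stearate. Scd1 had 9.98 and 9.57 FPKM in treated WT libraries, against 35.7 and 32.0 FPKM in untreated WT libraries (-1.69 ± 0.11, adjusted p = 1.45e-06). Elovl6 had 6.93 and 7.64 FPKM in treated and 22.1 and 21.1 FPKM in untreated WT libraries (-1.45 ± 0.06, adjusted p = 1.39e-07). Scd2 had 57.3 and 57.6 FPKM in treated and 143.6 and 136.8 FPKM in untreated WT libraries (-1.27 ± 0.09, adjusted p = 1.9e-06). No treated library overlapped an untreated one for these genes. The other desaturases differed, with Fads1 lower (-0.32 ± 0.06, adjusted p = 0.000773) and Fads2 higher (0.25 ± 0.06, adjusted p = 0.00334). In the sterol branch, Sqle had 35.0 and 30.9 FPKM in treated and 52.4 and 53.2 FPKM in untreated WT libraries (-0.67 ± 0.07, adjusted p = 1.83e-05), and Srebf2 was lower as well (-0.48 ± 0.06, adjusted p = 6.52e-05). Fibroblast genes summed to 229 and 225 FPKM in treated and 881 and 878 FPKM in untreated WT libraries, and adipocyte genes to 1.95 and 1.94 FPKM in treated libraries against the 15.5 and 16.7 FPKM given above. Of the 10 ES cell genes, 2 were higher and 7 lower in treated WT cells. The part of these lists in the result was not tested.

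The same comparison was made in Lnc956 knockdown cells. Against untreated knockdown cells, 13 of the 30 genes were higher and 6 lower, where 31.5% of all genes tested were higher and 37.1% lower. For the 30 genes the median was 0.12, and for all genes -0.04. The mevalonate stage had 6 higher and 0 lower of 7, the squalene to cholesterol stage 3 higher and 1 lower of 11, the regulators 2 higher and 1 lower of 4, and the fatty acid genes 2 higher and 4 lower of 8. Hmgcs1 had 83.4 and 88.8 FPKM in treated knockdown libraries, against 54.5 and 62.4 FPKM in untreated knockdown libraries (0.55 ± 0.06, adjusted p = 6.98e-05). Insig1 had 35.0 and 33.6 FPKM in treated and 21.9 and 26.0 FPKM in untreated knockdown libraries (0.50 ± 0.07, adjusted p = 0.000318). Both genes thus lay above their untreated libraries, where in WT cells neither had passed. Fasn (0.95 ± 0.04), Mvk (0.83 ± 0.05) and Mvd (0.77 ± 0.05) were the genes with the largest rise. Scd1, with 8.36 and 8.31 FPKM in treated and 12.5 and 16.9 FPKM in untreated knockdown libraries, was again the gene that fell most (-0.74 ± 0.11, adjusted p = 0.000408), followed by Scd2 (-0.64 ± 0.09) and Elovl6 (-0.48 ± 0.06). The count of 6 lower genes was 3 without treated replicate 1 and 3 without untreated replicate 2. The fibroblast list summed to 214 and 208 FPKM in treated knockdown libraries, against 871 and 856 FPKM in untreated ones, and of the 10 ES cell genes 2 were higher and 6 lower. Their part in the result was not tested.

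The difference between these responses was tested as an interaction, the response of knockdown cells minus that of WT cells. It was positive for 13 of the 30 genes and negative for 1, where 13.6% of all genes tested were positive and 19.5% negative. The median was 0.39 for the 30 genes and -0.04 for all. The 10 ES cell genes moved alongside, with 8 positive, 0 negative in limma and a median of 0.40, and their part in the result was not tested. Of the genes called for the interaction across the whole table, 41.1% were positive, and after quantile scaling 51.4%, with 15 positive and 1 negative among the 30. Elovl6 fell by 0.48 in knockdown cells and by 1.45 in WT cells, an interaction of 0.97 ± 0.09 (adjusted p = 0.000145). Scd1 had an interaction of 0.96 ± 0.16 (adjusted p = 0.00255), Cyp51, the lanosterol demethylase, of 0.68 ± 0.10 (adjusted p = 0.00108) and Fdft1 of 0.62 ± 0.10 (adjusted p = 0.00174). Hmgcs1 (0.47 ± 0.09, adjusted p = 0.00469), Insig1 (0.43 ± 0.11, adjusted p = 0.0148) and Srebf2 (0.47 ± 0.08, adjusted p = 0.00321) also passed. Mvk was the negative gene (-0.29 ± 0.08, adjusted p = 0.0185), and its call ended without WT untreated replicate 1, knockdown untreated replicate 2, WT treated replicate 1 or knockdown treated replicate 2. Without knockdown treated replicate 1 the negative genes were 2. The 2 responses and the untreated comparison share libraries, so a gene low in untreated knockdown cells enters both.

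Knockdown and WT cells were also compared under etoposide. Against treated WT cells, 4 of the 30 genes were higher and 12 lower in treated knockdown cells, where 22.7% of all genes tested were higher and 22.9% lower. For the 30 genes the median was -0.10, and for all genes -0.01. Idi1, which isomerises isopentenyl diphosphate, had 31.5 and 33.2 FPKM in treated knockdown libraries, against 50.3 and 50.2 FPKM in treated WT libraries (-0.62 ± 0.05, adjusted p = 3.12e-05). Tm7sf2, a sterol reductase, had 12.2 and 10.3 FPKM in knockdown and 15.6 and 15.8 FPKM in WT libraries (-0.45 ± 0.08, adjusted p = 0.00151), and Acat2 was lower too (-0.39 ± 0.07, adjusted p = 0.00191). Insig1 had 35.0 and 33.6 FPKM in knockdown and 46.0 and 44.7 FPKM in WT libraries (-0.39 ± 0.07, adjusted p = 0.00262). In the other direction, Elovl6 had 13.3 and 14.3 FPKM in knockdown and 6.93 and 7.64 FPKM in WT libraries (0.84 ± 0.06, adjusted p = 1.6e-05). Sqle (0.26 ± 0.07, adjusted p = 0.0118) and Fdft1 (0.25 ± 0.07, adjusted p = 0.0172) were higher in knockdown cells, and both calls ended without knockdown treated replicate 2, without which 1 gene was called higher. The call of Sqle also ended without WT treated replicate 2 and that of Fdft1 without WT treated replicate 1. Hmgcs1 did not pass (-0.06 ± 0.06, adjusted p = 0.457). Mdm2, a P53 target, had 74.5 and 79.3 FPKM in treated knockdown libraries and 149.5 and 150.6 FPKM in treated WT libraries.

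**Figure D2:**
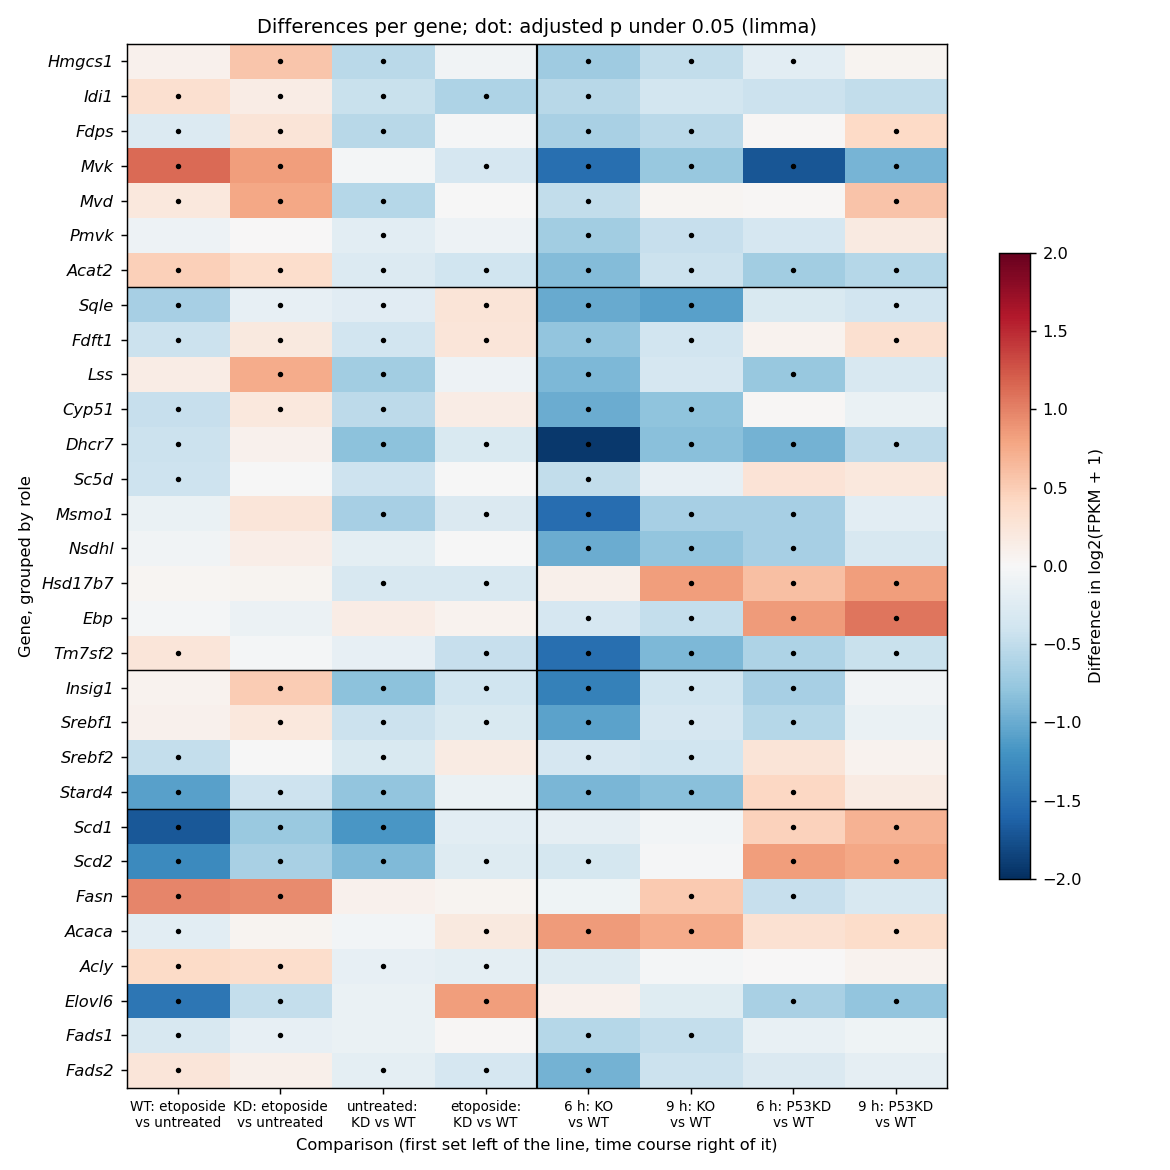
Difference in log2(FPKM + 1) for each of the 30 genes (rows, grouped by role) in 8 comparisons (columns), on a colour scale from -2 to 2, with a dot where the adjusted p of limma is under 0.05. The columns of Lnc956 loss against WT are mostly blue, with 21 genes lower in untreated knockdown cells and 24 lower in knockout cells at 6 h.

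The time course used other libraries and a knockout in place of the knockdown, and its WT cells were compared under etoposide only. Most of the sterol genes were lower there in cells without Lnc956. Under etoposide in the first set, 12 of the 30 genes were lower and 4 higher in knockdown than in WT cells. Their median was -0.10. At 6 h of etoposide 24 of the 30 genes were lower in knockout than in WT cells and 1 was higher, where 26.4% of all genes tested were lower and 21.8% higher. The median difference was -0.70 for the 30 genes and -0.04 for all. Lower were 7 of 7 mevalonate genes, 10 of 11 squalene to cholesterol genes, 4 of 4 regulators and carriers and 3 of 8 fatty acid genes.

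Dhcr7 had 8.15 and 9.93 FPKM in knockout libraries at 6 h, against 40.4 and 33.7 FPKM in WT libraries at 6 h (-1.92 ± 0.13, adjusted p = 6.31e-10). Msmo1 had 45.4 and 38 FPKM in knockout and 121.9 and 121.6 FPKM in WT libraries (-1.53 ± 0.11, adjusted p = 1.4e-09). Mvk had 17.3 and 17 FPKM in knockout and 51.9 and 49.7 FPKM in WT libraries (-1.51 ± 0.13, adjusted p = 9.38e-09). The knockout levels of these 3 genes were well apart from the WT levels. Insig1 had 33.1 and 27.4 FPKM in knockout and 79.9 and 76.2 FPKM in WT libraries (-1.34 ± 0.12, adjusted p = 1.3e-08). Hmgcs1 had 45.4 and 42.8 FPKM in knockout and 69.6 and 76.0 FPKM in WT libraries (-0.71 ± 0.09, adjusted p = 1.85e-06), and Sqle had 29.2 and 25.9 FPKM in knockout and 57.4 and 54.9 FPKM in WT libraries (-1.0 ± 0.14, adjusted p = 5.98e-06). Among the transcription factors, Srebf1 was lower by more than 1 log2 unit (-1.07 ± 0.13, adjusted p = 9.15e-07). Srebf2 was lower by less (-0.34 ± 0.12, adjusted p = 0.0269), and that call ended after quantile scaling, without the libraries labelled 10 uM, and without WT or knockout replicate 1.

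Of the 8 fatty acid genes, 3 were lower and 1 was higher. Fads2, a desaturase of polyunsaturated fatty acids, had 18.9 and 17.1 FPKM in knockout libraries at 6 h, against 38.8 and 32.1 FPKM in WT libraries (-0.94 ± 0.18, adjusted p = 0.000234). Fads1 (-0.57 ± 0.15, adjusted p = 0.00474) and Scd2 (-0.35 ± 0.10, adjusted p = 0.00741) were lower as well. Acaca, the carboxylase that commits acetyl-CoA to fatty acids, had 6.44 and 7.89 FPKM in knockout libraries at 6 h, against 3.53 and 3.49 FPKM in WT libraries (0.85 ± 0.14, adjusted p = 3.92e-05). Fasn, with 35.0 and 45.0 FPKM in knockout and 45.6 and 39.2 FPKM in WT libraries, overlapped between the groups (-0.09 ± 0.16, adjusted p = 0.683). Scd1, with 8.85 and 9.91 FPKM in knockout and 11.4 and 10.2 FPKM in WT libraries, did not pass (-0.18 ± 0.15, adjusted p = 0.329). Genes of the fibroblast list summed to 789 and 711 FPKM in knockout libraries at 6 h and to 14.2 and 12.8 FPKM in WT libraries, and their part in the result was not tested.

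At 9 h, 18 of the 30 genes were lower in knockout than in WT cells and 3 higher, where 20.6% of all genes tested were lower and 23.4% higher. Medians were -0.41 for the 30 genes and 0.00 for all. Sqle had 25.9 and 27.5 FPKM in knockout libraries, against 60.5 and 54.7 FPKM in WT libraries (-1.08 ± 0.14, adjusted p = 3.23e-06). Tm7sf2 had 8.17 and 7.41 FPKM in knockout and 14.6 and 16.1 FPKM in WT libraries (-0.89 ± 0.16, adjusted p = 0.00018), and Stard4 had 4.40 and 4.19 FPKM in knockout and 8.41 and 8.57 FPKM in WT libraries (-0.84 ± 0.15, adjusted p = 0.000115). Each knockout library was below each WT library for these genes. Hsd17b7, a reductase of the cholesterol branch, was higher, with 8.21 and 8.01 FPKM in knockout and 4.33 and 3.84 FPKM in WT libraries (0.84 ± 0.15, adjusted p = 0.000194), as were Acaca (0.74 ± 0.14) and Fasn (0.52 ± 0.16, adjusted p = 0.0111). The call of Fasn ended without WT replicate 2 and without knockout replicate 2. The lower count was 12 without knockout replicate 1, and fibroblast genes summed to 963 and 1045 FPKM in knockout and 12.6 and 11.9 FPKM in WT libraries, their part in the result not tested.

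**Figure D3:**
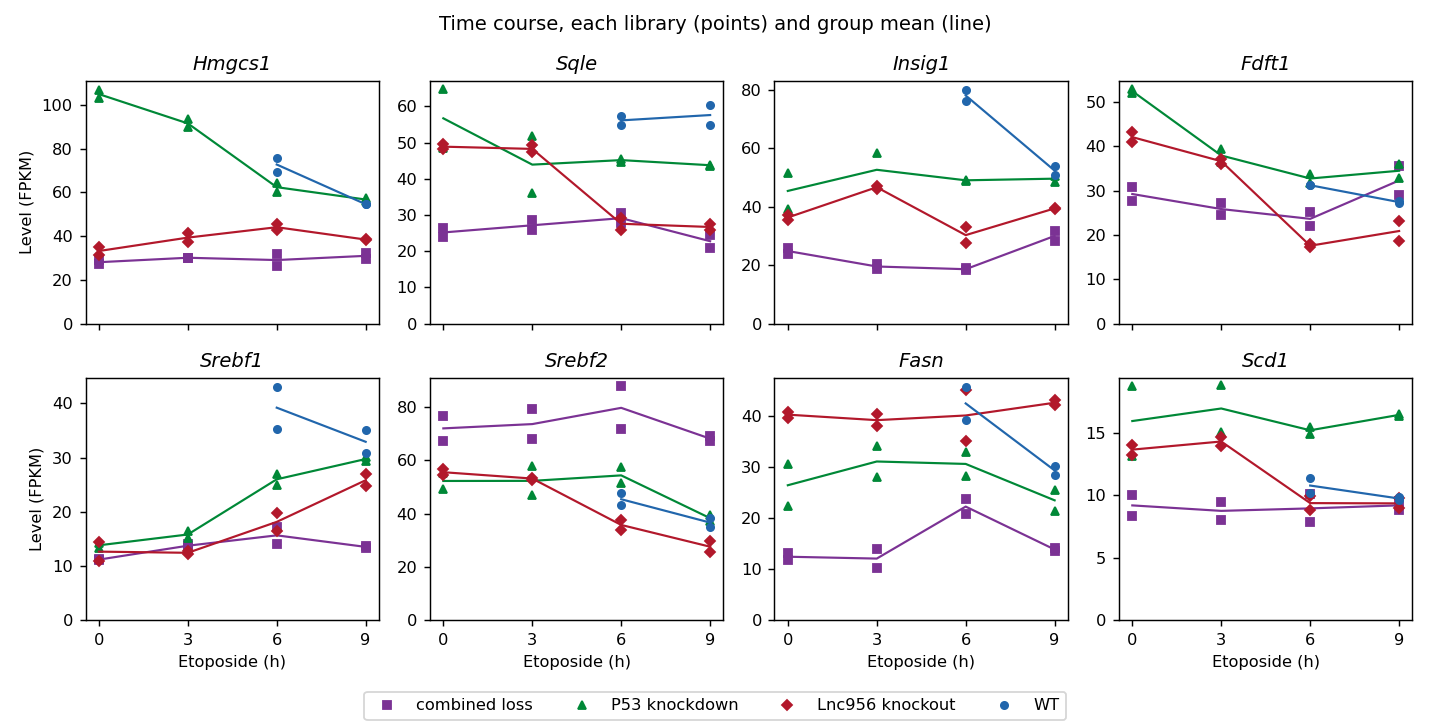
Levels (FPKM, linear axes from 0) of 8 genes against hours of etoposide, with a point per library and a line through group means, for combined-loss, P53 knockdown, Lnc956 knockout and WT cells. Combined-loss libraries are lowest for Insig1 and Fasn at each time and highest for Srebf2.

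P53 knockdown cells were compared with WT cells at 6 and 9 h. Against WT cells at 6 h, 5 of the 30 genes were higher and 12 lower in P53 knockdown cells, where 28.9% of all genes tested were higher and 24.3% lower. The median difference was -0.25 for the 30 genes and 0.05 for all. Mvk had 14.6 and 15.1 FPKM in P53 knockdown libraries, against 51.9 and 49.7 FPKM in WT libraries (-1.71 ± 0.13, adjusted p = 1.16e-09). Dhcr7 had 19.1 and 18.1 FPKM in knockdown and 40.4 and 33.7 FPKM in WT libraries (-0.95 ± 0.13, adjusted p = 5.96e-06), and Lss had 8.60 and 8.59 FPKM in knockdown and 16 and 14.4 FPKM in WT libraries (-0.75 ± 0.14, adjusted p = 0.000155). The higher genes were led by Ebp, the sterol isomerase, with 29.0 and 30.05 FPKM in knockdown and 15.7 and 16.3 FPKM in WT libraries (0.84 ± 0.12, adjusted p = 6.32e-06). Scd2 had 93.4 and 93.8 FPKM in knockdown and 54.7 and 49.0 FPKM in WT libraries (0.84 ± 0.10, adjusted p = 8.58e-07), and Hsd17b7 was higher as well (0.61 ± 0.15, adjusted p = 0.00257). The fibroblast list summed to 924 and 942 FPKM in knockdown libraries, against 14.2 and 12.8 FPKM in WT libraries, and adipocyte genes to 8.09 and 11.4 FPKM in knockdown and 0.346 and 0.750 FPKM in WT libraries, and their part in the result was not tested. The count of 5 higher genes was 3 without P53 knockdown replicate 1, a library labelled 10 uM, and 2 without all 4 such libraries.

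At 9 h, 8 were higher and 6 lower in P53 knockdown than in WT cells, where 29.7% of all genes tested were higher and 24.8% lower, so the members' shares were near those of all genes. Medians were -0.08 for the 30 genes and 0.04 for all. Of all genes called, 54.5% were higher, and 43.6% after quantile scaling, with 7 higher and 9 lower among the 30. Ebp had 40.8 and 39.1 FPKM in P53 knockdown libraries, against 19.7 and 17.2 FPKM in WT libraries (1.07 ± 0.12, adjusted p = 2.92e-07), and Hsd17b7 (0.84 ± 0.15) and Scd2 (0.77 ± 0.10) followed. Mvk was again the lowest (-0.94 ± 0.13, adjusted p = 4.36e-06), ahead of Elovl6 (-0.78 ± 0.25, adjusted p = 0.0123) and Acat2 (-0.58 ± 0.12, adjusted p = 0.000551). Hmgcs1, Insig1, Srebf1 and Srebf2 did not pass, at differences between -0.14 and 0.06. The higher count was 5 without WT replicate 2, and the lower count 3 without P53 knockdown replicate 1. The fibroblast list summed to 1181 and 1144 FPKM in knockdown libraries, against 12.6 and 11.9 FPKM in WT libraries, and adipocyte genes to 10.4 and 8.68 FPKM in knockdown and 0.977 and 0.929 FPKM in WT libraries, their part in the result not tested.

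Loss of Lnc956 on top of the P53 knockdown went with lower levels of most of the genes at all 4 times. In combined-loss against P53 knockdown cells, 24 genes were lower and 2 higher at 0 h, 23 and 2 at 3 h, 22 and 1 at 6 h, and 24 and 2 at 9 h. Among all genes tested, 23.7% were lower and 21.2% higher at 0 h, 26.4% and 21.3% at 3 h, 22.5% and 14.7% at 6 h, and 33% and 14.9% at 9 h. The median difference of the 30 genes was -0.88, -0.96, -0.70 and -0.71 at the 4 times, and that of all genes -0.03, -0.07, -0.12 and -0.18. After quantile scaling the share of higher genes among all those called moved to 52.1% at 6 h, against 39.5% before it, and to 50.9% at 9 h, against 31.1%. The 30 genes then had 22 lower and 1 higher at 6 h and 22 lower and 2 higher at 9 h.

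At 0 h, Idi1 had 10.1 and 15.2 FPKM in combined-loss libraries, against 69.5 and 68.5 FPKM in P53 knockdown libraries (-2.38 ± 0.22, adjusted p = 1.28e-07). Msmo1 had 39.0 and 39.6 FPKM in combined-loss and 148.8 and 183.2 FPKM in P53 knockdown libraries (-2.04 ± 0.11, adjusted p = 2.66e-10). Hmgcs1 had 27.3 and 28.9 FPKM in combined-loss and 103.1 and 107.0 FPKM in P53 knockdown libraries (-1.87 ± 0.09, adjusted p = 3.09e-11). The combined-loss levels of these genes were far under those of P53 knockdown cells. Insig1 (-0.83 ± 0.12, adjusted p = 1.32e-05), Fdft1 (-0.82 ± 0.11, adjusted p = 6.04e-06), Sqle (-1.13 ± 0.14, adjusted p = 3.06e-06) and Fasn (-1.01 ± 0.16, adjusted p = 4.14e-05) were lower as well. Scd1 had 8.35 and 10.0 FPKM in combined-loss and 18.8 and 13.1 FPKM in P53 knockdown libraries (-0.72 ± 0.15, adjusted p = 0.000661). The genes that went up were Tm7sf2, with 8.58 and 8.89 FPKM in combined-loss and 4.73 and 5.38 FPKM in P53 knockdown libraries (0.69 ± 0.16, adjusted p = 0.00202), and Srebf2 (0.45 ± 0.12, adjusted p = 0.00481).

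Srebf2 was higher in combined-loss than in P53 knockdown cells at every time, and its difference was 0.49 ± 0.12 at 3 h, 0.54 ± 0.12 at 6 h and 0.81 ± 0.12 at 9 h. Its levels at 9 h were 69.0 and 67.1 FPKM in combined-loss libraries, against 37.2 and 39.4 FPKM in P53 knockdown libraries. The calls of Srebf2 at 0, 3 and 6 h, of Tm7sf2 at 0 h and of Ebp at 3 h ended when those groups were fitted alone. The call of Srebf2 at 0 h also ended without combined-loss replicate 1 and its call at 3 h without P53 knockdown replicate 2. At 9 h the lowest genes were Scd2, with 29.7 and 33.1 FPKM in combined-loss and 106.0 and 115.5 FPKM in P53 knockdown libraries (-1.79 ± 0.10, adjusted p = 3.31e-10), Acat2 (-1.33 ± 0.12) and Nsdhl (-1.24 ± 0.16). Idi1 was the lowest at 3 h (-2.36 ± 0.22) and at 6 h (-1.95 ± 0.22). Besides Srebf2, Ebp was higher at 3 h (0.37 ± 0.12, adjusted p = 0.0167) and Mvd at 9 h (0.31 ± 0.11, adjusted p = 0.02). The higher count was 1 at 0 h without combined-loss replicate 1, 0 at 3 h without P53 knockdown replicate 2 and 1 without combined-loss replicate 2, 2 at 6 h without combined-loss replicate 2, and 1 at 9 h without P53 knockdown replicate 2 or either combined-loss library. Fibroblast genes summed to 415 to 575 FPKM in combined-loss libraries over the 4 times and to 348 to 1181 FPKM in P53 knockdown libraries, where the replicates differed most at 0 h (621 and 381 FPKM) and 3 h (659 and 348 FPKM). Of 16 fibroblast genes tested, 14 were lower in combined-loss cells at 6 h and 14 at 9 h. Their part in the result was not tested.

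**Figure D4:**
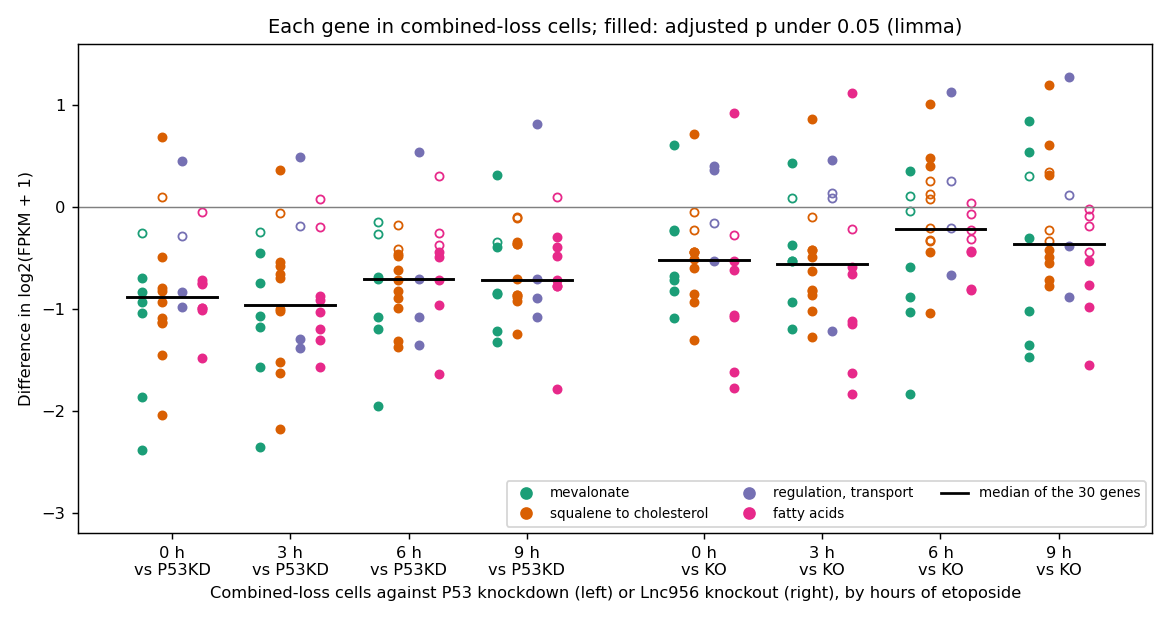
Difference in log2(FPKM + 1) of each of the 30 genes in combined-loss cells, against P53 knockdown cells (left) and against Lnc956 knockout cells (right) by hours of etoposide, with points coloured by role, filled where the adjusted p of limma is under 0.05, and a line at the median. The medians against P53 knockdown lie between -0.96 and -0.70, and those against knockout between -0.56 and -0.22.

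Loss of P53 on top of the Lnc956 knockout also went with lower levels of many of the genes. In combined-loss against knockout cells, 20 genes were lower and 5 higher at 0 h, where 23.9% and 31.4% of all genes tested were. At 3 h the counts were 21 and 4, where 24.1% and 30.1% were, at 6 h 10 and 5, where 22.8% and 24.7% were, and at 9 h 15 and 6, where 32.5% and 20.5% were. The median of the 30 genes was -0.52, -0.56, -0.22 and -0.36 at the 4 times, and that of all genes 0.07, 0.05, -0.01 and -0.13. At 9 h the share of higher genes among all those called was 38.6%, and 49.6% after quantile scaling, with 15 lower and 8 higher among the 30. These comparisons share the combined-loss libraries with those against P53 knockdown cells.

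The fatty acid genes led this difference at 0 h. Acaca had 3.23 and 3.39 FPKM in combined-loss libraries, against 13.8 and 13.8 FPKM in knockout libraries (-1.78 ± 0.14, adjusted p = 3.8e-09). Fasn had 13.2 and 11.7 FPKM in combined-loss and 39.6 and 40.8 FPKM in knockout libraries (-1.62 ± 0.16, adjusted p = 7.28e-08), and Nsdhl, a dehydrogenase of the cholesterol branch, had 5.83 and 5.55 FPKM in combined-loss and 15.5 and 15.5 FPKM in knockout libraries (-1.30 ± 0.16, adjusted p = 1.92e-06). All 3 were lower in combined-loss cells at 3, 6 and 9 h as well. Hmgcs1, with 27.3 and 28.9 FPKM in combined-loss and 31.4 and 35.0 FPKM in knockout libraries at 0 h, was lower as well (-0.23 ± 0.09, adjusted p = 0.0329).

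Ebp, Mvd and Srebf2 went the other way. Elovl6 did so at 0 h, with 7.41 and 11.1 FPKM in combined-loss libraries, against 3.58 and 5.13 FPKM in knockout libraries (0.93 ± 0.25, adjusted p = 0.00377), and at 3 h (1.12 ± 0.25, adjusted p = 0.000862), while at 6 and 9 h it did not pass. At 9 h Srebf2 had 69.0 and 67.1 FPKM in combined-loss libraries, against 25.5 and 29.7 FPKM in knockout libraries (1.28 ± 0.12, adjusted p = 5.18e-08). Ebp had 30.01 and 32.5 FPKM in combined-loss and 12.1 and 14 FPKM in knockout libraries (1.2 ± 0.12, adjusted p = 9.47e-08), and Mvd had 37.3 and 36.7 FPKM in combined-loss and 19.8 and 20.5 FPKM in knockout libraries (0.84 ± 0.11, adjusted p = 1.75e-06). Each of the 3 was called higher in combined-loss cells at all 4 times. The lowest gene was Idi1 at 6 h (-1.83 ± 0.22, adjusted p = 1.67e-06) and Fasn at 9 h (-1.55 ± 0.16, adjusted p = 1.29e-07). The count of 5 higher genes at 0 h was 2 without knockout replicate 1, 3 without combined-loss replicate 1 and 3 without combined-loss replicate 2, and the 5 at 6 h were 3 without combined-loss replicate 2. Fibroblast genes summed to 415 to 575 FPKM in combined-loss and 711 to 1045 FPKM in knockout libraries, their part in the result not tested.

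Whether P53 knockdown did the same in knockout as in WT cells was tested as an interaction at 6 and 9 h, the difference in knockout cells minus that in WT cells. At 6 h it was positive for 4 of the 30 genes and negative for 5, where 20.3% and 21.1% of all genes tested were. At 9 h it was positive for 3 and negative for 10, where 17.4% and 30.9% were. At both times the members' shares were near or below those of all genes. At 9 h the share of positive genes among all those called was 36.1%, and 54.3% after quantile scaling, with the 30 genes again at 3 and 10. Scd2 was the most negative at 9 h (-1.76 ± 0.14, adjusted p = 8.1e-09), followed by Hsd17b7 (-1.55 ± 0.22, adjusted p = 9.71e-06) and Fasn (-1.24 ± 0.22, adjusted p = 0.000143). Srebf2 was the most positive (1.21 ± 0.17, adjusted p = 9.54e-06), ahead of Tm7sf2 (0.79 ± 0.23) and Cyp51 (0.45 ± 0.14). At 6 h Dhcr7 (1.21 ± 0.19, adjusted p = 4.28e-05) and Idi1 (-1.40 ± 0.31, adjusted p = 0.00142) stood at the ends, with Tm7sf2 (1.10 ± 0.23) and Scd2 (-1.29 ± 0.14) next to them. Of 16 fibroblast genes tested, 15 were negative at each time, and their part in the result was not tested. The positive count was 8 at 6 h without combined-loss replicate 1 and 1 at 9 h without combined-loss replicate 2.

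Time in etoposide was followed in the 3 mutant lines from 0 h. At 3 h few of the 30 genes were called against 0 h, in tests that did not pair libraries by replicate. In knockout cells 0 were called in either direction, where 0.345% of all genes tested were higher and 0.105% lower, and the smallest adjusted p of limma was 0.258, with 4 higher and 0 lower at an unadjusted p under 0.05. In combined-loss cells 0 of the 30 genes and 0 of all genes tested were called at 3 h (0%), with 1 higher and 2 lower at an unadjusted p under 0.05. In P53 knockdown cells, where 2.33% of all genes tested were lower and 2.85% higher, Fdft1 alone was lower, with 39.5 and 36.5 FPKM at 3 h, against 52.0 and 53 FPKM at 0 h (-0.46 ± 0.11, adjusted p = 0.014). That count was 0 without P53 knockdown replicate 2 at 3 h and 2 without replicate 1 at 3 h, and the count of higher genes was 1 without 0 h replicate 1.

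At 9 h of etoposide knockout cells had 8 genes higher and 9 lower than at 0 h, where 43.2% of all genes tested were higher and 20.4% lower. The median of all genes was 0.27 and that of the 30 genes -0.13. Quantile scaling brought the median of all genes to -0.01, the share of higher genes among those called to 49.3% from the 67.9% without it, and the 30 genes to 7 higher and 13 lower. Acaca had 5.56 and 5.61 FPKM at 9 h, against 13.8 and 13.8 FPKM at 0 h (-1.16 ± 0.14, adjusted p = 6.01e-07). Fdps, which makes farnesyl diphosphate, had 62.1 and 65.7 FPKM at 9 h and 147.8 and 137.2 FPKM at 0 h (-1.14 ± 0.13, adjusted p = 2.81e-07), and Srebf2 had 25.5 and 29.7 FPKM at 9 h and 54.4 and 56.5 FPKM at 0 h (-0.99 ± 0.12, adjusted p = 9.2e-07). Idi1 rose, with 49.3 and 36.9 FPKM at 9 h and 20.3 and 21.9 FPKM at 0 h (0.99 ± 0.22, adjusted p = 0.000733), as did Srebf1 (0.98 ± 0.13) and Mvk (0.68 ± 0.13). Of the 10 ES cell genes, 9 were lower at 9 h than at 0 h, and their part in the result was not tested. The knockout columns at 6 and 9 h are named in another style than those at 0 and 3 h, and time and such a split cannot be told apart. The count of 8 higher genes was 5 without 0 h replicate 1, without 9 h replicate 1 or without 9 h replicate 2.

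P53 knockdown cells had 7 genes higher and 13 lower at 9 h than at 0 h, where 39.3% of all genes tested were higher and 20.9% lower. The median of all genes was 0.20 and that of the 30 genes -0.19. After quantile scaling the share of higher genes among those called was 49.6%, against 65.3% without it, and the 30 genes had 7 higher and 14 lower. Elovl6 had 3.73 and 5.18 FPKM at 9 h, against 22.6 and 15.9 FPKM at 0 h (-1.89 ± 0.25, adjusted p = 3.19e-06). Acaca had 3.55 and 4.66 FPKM at 9 h and 11.9 and 10.1 FPKM at 0 h (-1.24 ± 0.14, adjusted p = 3.73e-07), and Msmo1 had 86.1 and 75.6 FPKM at 9 h and 148.8 and 183.2 FPKM at 0 h (-1.02 ± 0.11, adjusted p = 3.47e-07). Hmgcs1 had 55.9 and 57.6 FPKM at 9 h and 103.1 and 107.0 FPKM at 0 h (-0.88 ± 0.09, adjusted p = 1.25e-07). Scd2 went up, with 106.0 and 115.5 FPKM at 9 h and 54.3 and 45.5 FPKM at 0 h (1.14 ± 0.10, adjusted p = 2.33e-08), and so did Srebf1 (1.05 ± 0.13) and Tm7sf2 (0.99 ± 0.16). Fibroblast genes summed to 1181 and 1144 FPKM at 9 h and 621 and 381 FPKM at 0 h, and of the 10 ES cell genes 2 were higher and 6 lower, their part in the result not tested.

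Combined-loss cells had 0 of the 30 genes called in either direction at 9 h against 0 h, where 2.43% of all genes tested were higher and 3.2% lower. The smallest adjusted p of limma was 0.07, for Elovl6 (-0.79 ± 0.25), and 4 genes were higher and 1 lower at an unadjusted p under 0.05. The change over 9 h in combined-loss cells minus that in knockout cells was positive for 8 of the 30 genes and negative for 3, where 15.5% and 31.9% of all genes tested were. The median of all genes was -0.22 for this difference, and 0.02 after quantile scaling. Of all genes called, 32.7% were positive, and 52.4% after that scaling, with 13 positive and 4 negative among the 30. Fdps (1.37 ± 0.18, adjusted p = 8.5e-06), Cyp51 (1.16 ± 0.14, adjusted p = 2.64e-06) and Fdft1 (1.12 ± 0.15, adjusted p = 1.18e-05) were the most positive, and Elovl6 (-1.37 ± 0.35, adjusted p = 0.00378) and Srebf1 (-0.73 ± 0.18, adjusted p = 0.00272) the most negative. The knockout columns at 0 and 9 h are named in different styles, while combined-loss columns share a style. Such a split and time cannot be told apart in the difference between these lines. The 9 h count of 0 higher genes in combined-loss cells was 1 without 9 h replicate 1.

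The same lists were read in the time course. At 6 h, 5 of 11 further sterol genes were lower and 2 higher in knockout than in WT cells. Among all genes tested, 26.4% were lower and 21.8% higher. Scap, the SREBP escort, was lower (-1.19 ± 0.12, limma adjusted p = 8.39e-08). Soat1, which esterifies cholesterol for storage, was higher (1.27 ± 0.14, adjusted p = 4.34e-07). The sterol exporters Abca1 (-1.40 ± 0.18, adjusted p = 2.29e-06) and Abcg1 (-1.73 ± 0.16, adjusted p = 2.24e-08) were lower, so 2 of 5 efflux genes were lower and 1 was higher. In combined-loss against P53 knockdown cells at 0 h, 3 of the 11 sterol genes were lower and 3 higher, while 0 of 5 efflux genes passed in limma. Among all genes tested, 23.7% were lower and 21.2% higher. At 3, 6 and 9 h, 3, 1 and 4 of the 5 efflux genes were lower and 0 higher. Of all genes tested, 26.4%, 22.5% and 33% were lower at those times, and 21.3%, 14.7% and 14.9% higher. In P53 knockdown against WT cells at 6 h, 3 of 5 efflux genes were lower and 1 higher, where 24.3% and 28.9% of all genes tested were. At 9 h, 2 were lower and 1 higher, where 24.8% and 29.7% were. In knockout cells at 9 h against 0 h, 5 of 5 efflux genes were higher, where 43.2% of all genes tested were. The median was 0.93 for the efflux genes and 0.27 for all genes, and the smallest efflux difference was 0.24. Mylip, a ubiquitin ligase induced by the sterol-sensing LXR receptors, rose most (2.14 ± 0.14, limma adjusted p = 1.47e-10).

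P53 binding was read from peaks that both ChIP libraries of a group held, within 10 kb of a gene. After etoposide, 11 of the 30 genes had such a site in knockdown cells, where 23.8% of 12102 genes did, and 10 of the 30 in WT cells, where 27.3% did. Without etoposide it was 0 of the 30 in both, where 1.47% of genes in knockdown cells and 1.97% in WT cells had one. The peak lists hold peaks past the authors' threshold only, and their peaks were called per library. In treated WT cells the site at Hmgcs1 covered chr13:119690097-119690860, which takes in the whole promoter window printed above, with its peak summit 215 bases after the start. The site at Msmo1 covered chr8:64733263-64733739 and that at Cyp51 chr5:4104119-4104811, with summits 19 and 35 bases after the starts. Acat2 had a site at chr17:12960227-12961106 with its summit 182 bases after the start, and Srebf2 at chr15:82146749-82147126 with its summit 371 bases before it. The same 5 genes had a site at or near the start in treated knockdown cells, and Acly, which makes cytosolic acetyl-CoA, had one at chr11:100527642-100527958. Fdft1, Mvd and Pmvk had sites in both treated groups, the strongest of which lay farther from the start or had no start to measure from. Positions given are those of the strongest site of a gene. Counted by overlap with 1 kb either side of a start, 7 of 23 genes had a site in treated WT cells. They were the 5 genes above, Srebf1 and Mvd. Mvd had 3 sites there. Scd2 and Srebf1 had a site in treated WT cells and in no other P53 group, and Fdps and Tm7sf2 in treated knockdown cells. The difference between groups in having a site was not tested.

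The level of the 5 genes with a summit at or near the start went in several directions with etoposide in WT cells. Acat2 was higher (0.48 ± 0.07), Srebf2 and Cyp51 were lower (-0.48 ± 0.06 and -0.46 ± 0.07), and Hmgcs1 (0.08 ± 0.06) and Msmo1 (-0.13 ± 0.10) did not pass. Mvd, also with a site within 1 kb, had 65.1 and 60.1 FPKM in treated and 54.1 and 53.2 FPKM in untreated WT libraries. Srebf1, likewise, had 27.7 and 26.0 FPKM in treated and 26.0 and 24.4 FPKM in untreated WT libraries.

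KLF4, a pluripotency factor, had sites within 10 kb of most of the 30 genes in every group. The same held for most of all genes tested, except in treated WT cells. Of the 30, 28 had a site in treated and 28 in untreated cells with the shortened Lnc956, where 80.8% and 84.2% of 12102 genes did. With full-length Lnc956 put back the counts were 25 treated and 28 untreated, where 66.7% and 83.5% did, and in knockout cells 27 treated and 29 untreated, where 77.8% and 81.1% did. In WT cells they were 20 treated, where 40.2% of genes had a site, and 30 untreated, where 87.1% did. The genes without a site in treated WT cells were Cyp51, Elovl6, Fads1, Hsd17b7, Msmo1, Nsdhl, Pmvk, Sc5d, Scd1 and Scd2. Peaks per library numbered 6943 and 5691 in treated WT cells, against 30590 and 27294 in untreated WT cells, and the share of all genes with a site fell alongside. At Hmgcs1 a KLF4 site was present in all 8 groups, in treated WT cells at chr13:119690019-119690923, across the same window as the P53 site.

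**Figure D5:**
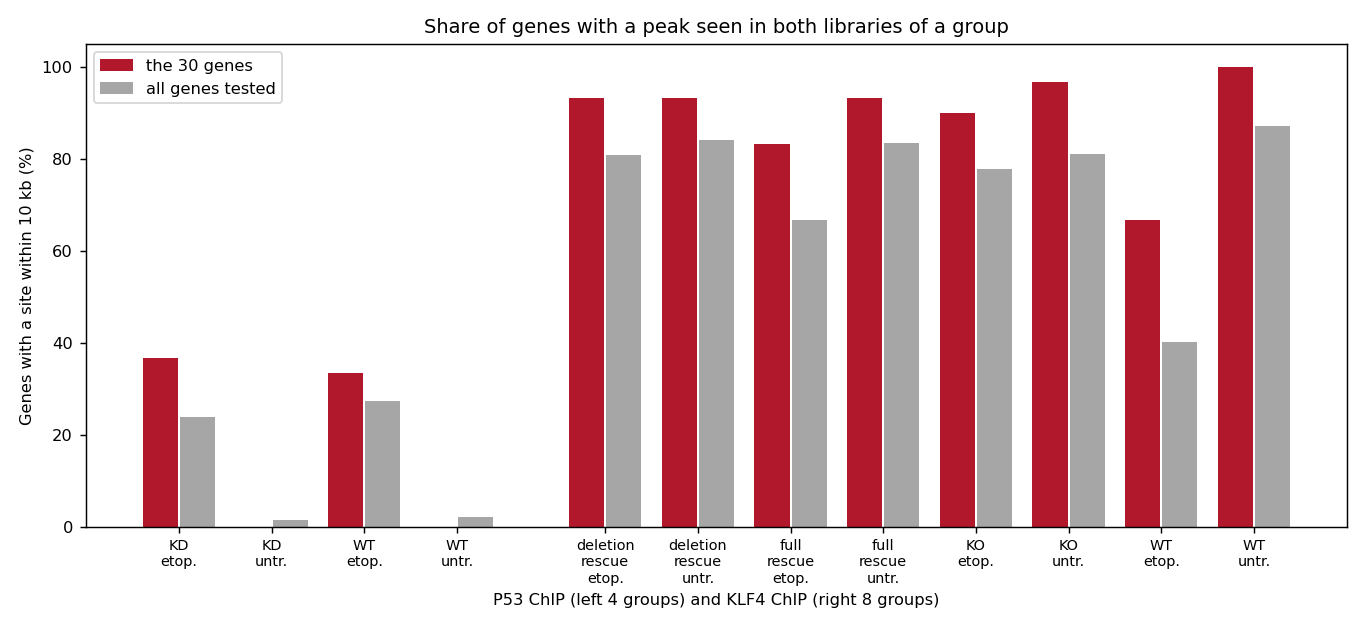
Share of the 30 genes (red bars) and of all 12102 genes (grey bars) with a site within 10 kb that both libraries of a group held, for P53 in 4 groups and KLF4 in 8 groups. For P53 the bars stand near or above those of all genes after etoposide and at 0% for the 30 genes without it, and for KLF4 the lowest pair is treated WT cells, at 66.7% and 40.2%.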

How the data were processed

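Expression was read from 2 tables of FPKM that the authors deposited, 36 RNA-seq libraries in 18 groups, and binding from 24 peak lists, in which the authors deposited for each peak a fold enrichment (a ratio), the −log10 of its p and q and a score of 10 times the −log10 q. TopHat2 2.0.8, Cufflinks 2.1.1, Cuffdiff 2.1.1, CASAVA 2.19, Bowtie2 2.1.0, MACS2 2.2.7.1 and the build mm10 are named in the submitters' processing notes. The annotation, the scaling between libraries, the treatment of reads shared by close paralogs such as Scd1 and Scd2, and the use of strand are not stated in the labels, headers or notes. Depth is unknown, since FPKM carry no counts.

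The 30 members and the companion lists (54 genes) were chosen with earlier results of these data known. Some genes of these lists are counted but not reported here by name. Each table was fitted by itself with limma 3.58.1 in R 4.3.3 on log2(FPKM + 1), with 1 mean per group over all groups and a variance trend, on genes at 1 FPKM or more in at least 2 libraries, for 26 comparisons. limma was tested on simulated data first. Values of 8 genes, and of up to 3 members that rose and 3 that fell most per comparison, are given. A site is a peak of 1 library that overlaps a peak of the other by 1 bp or more. A gene has a site within 10 kb of its body. Positions come from RefSeq on GRCm38.p6. Combined-loss columns of the time course were matched to their samples by elimination. A further 4 columns, named as WT at 0 and 3 h, match no labelled sample and were not used. WT cells were therefore not compared at those times. Alternatives were quantile scaling, a pseudocount of 0.1, no filter, only the groups compared, a replicate block, and leaving out each library or the 4 libraries labelled 10 uM.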

Additional observations from a re-analysis of the deposited data

Results flagged for a closer look

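Several genes responded differently in 2 backgrounds by a test of the difference itself (limma interaction, adjusted p under 0.05, log2 scale). The etoposide response in Lnc956 knockdown cells minus that in WT cells was 0.97 for Elovl6, 0.96 for Scd1, 0.68 for Cyp51, 0.62 for Fdft1, 0.50 for Sqle, 0.47 for Hmgcs1, 0.47 for Srebf2, 0.43 for Insig1 and -0.29 for Mvk. Of the 30 genes, 13 were positive and 1 was negative, where 13.6% and 19.5% of all genes tested were.

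The change over 9 h of etoposide in combined-loss cells minus that in knockout cells was 1.37 for Fdps, 1.16 for Cyp51, 1.12 for Fdft1, 0.91 for Srebf2, 0.71 for Sqle, -0.37 for Scd2, -0.73 for Srebf1 and -1.37 for Elovl6. The median of all genes was -0.22 for this difference. Of the 30 genes, 8 were positive and 3 negative, where 15.5% and 31.9% of all genes tested were. The knockout columns at 0 and 9 h are named in different styles, while combined-loss columns share a style. Such a split and time cannot be told apart here.

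The effect of P53 knockdown in knockout cells minus that in WT cells was, at 6 h, 1.21 for Dhcr7, 1.10 for Tm7sf2, 0.87 for Srebf2, -0.37 for Hmgcs1, -1.10 for Acaca, -1.29 for Scd2 and -1.40 for Idi1. At 9 h it was 1.21 for Srebf2, 0.79 for Tm7sf2, 0.45 for Cyp51, -0.36 for Hmgcs1, -0.72 for Scd1, -0.74 for Srebf1, -1.24 for Fasn, -1.55 for Hsd17b7 and -1.76 for Scd2. WT libraries differ from the others in their fibroblast genes, and the part of that in these differences was not tested. Of the 30 genes, 4 were positive and 5 negative at 6 h, where 20.3% and 21.1% of all genes tested were. At 9 h 3 were positive and 10 negative, where 17.4% and 30.9% were. The members' shares were thus near or below those of all genes.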

How the results depend on the processing

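No single-gene result that passed changed its sign under the alternatives run. The balance of calls turned for P53 knockdown against WT cells at 9 h, where quantile scaling left 7 of the 30 genes higher and 9 lower in place of 8 and 6. It also turned with only the groups compared, where 10 were lower and no more than 8 higher. Counts of the 30 genes that moved by over 1.5 times were few beside those where 1 library was left out. With quantile scaling, 2 genes were lower in P53 knockdown cells at 3 h against 0 h, 1 was lower in combined-loss cells at 9 h, and 13 were positive for the change over 9 h in combined-loss minus knockout cells. With only the groups compared, 10 genes were lower in P53 knockdown than in WT cells at 9 h, 2 were higher in combined-loss than in knockout cells at 6 h, 0 were higher in combined-loss than in P53 knockdown cells at 0, 3 and 6 h, and 0 were lower in P53 knockdown cells at 3 h. Without the 4 libraries labelled 10 uM, 2 genes were higher in P53 knockdown than in WT cells at 6 h and 1 in combined-loss than in P53 knockdown cells at 9 h. The cause was not tested.

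With each library left out in turn, 12 to 18 genes were lower in untreated knockdown than in WT cells, 1 to 3 higher in treated knockdown than in WT cells, 3 to 6 lower with etoposide in knockdown cells, and 0 to 2 negative for the difference of responses. P53 knockdown against WT gave 3 to 4 higher at 6 h, and 5 to 7 higher and 3 to 5 lower at 9 h. Combined loss against knockout gave 2 to 4 higher at 0 h and 3 to 6 at 6 h. Combined loss against P53 knockdown gave 1 to 2 higher at 0 h, 0 to 2 at 3 h, 1 to 2 at 6 h and 1 to 2 at 9 h. Against 0 h, 5 to 8 were higher in knockout cells at 9 h, 0 to 1 higher and 0 to 2 lower in P53 knockdown cells at 3 h, and 0 to 1 higher in combined-loss cells at 9 h. The difference of P53 effects gave 4 to 8 positive at 6 h and 1 to 4 at 9 h.

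The 24 genes lower in knockout than in WT cells at 6 h were 18 to 22 with a library left out. Deviations of libraries with the same replicate number correlated at -0.16 to 0.09 over 6 pairs of groups in the first set. In the time course they correlated at -0.55 to 0.51 over 91 pairs, where 18 were over 0.1. The number was not taken to pair libraries, though single pairs of groups can share deviations, which the tests did not use. Fibroblast sums of P53 knockdown replicates 1 and 2 were 621 and 381 FPKM at 0 h and 659 and 348 FPKM at 3 h. The replicate block moved no count by over 1.5 times, and of 299 single-gene results it ended 2, both of Sqle, in knockdown cells with etoposide and in untreated knockdown against WT cells. With peaks at a −log10 q of 5 or more, 6 genes had a P53 site in treated knockdown cells, where 16.3% of all genes did, and 6 in treated WT cells, where 16.8% did. Within 1 kb of a start, where 23 of the 30 genes could be placed, 6 had a P53 site in treated knockdown cells (12.0% of all genes) and 7 in treated WT cells (13.8%). KLF4 sites were then at 16 genes in treated (51.3%) and 18 in untreated full-length rescue cells (69.6%), 19 in untreated knockout cells (66.2%) and 12 in treated WT cells (28.4%).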
